A study of Mus musculus with 6 samples.

Results

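Caveolae are small flask-shaped pits of the plasma membrane that are abundant in endothelial cells, fibroblasts, adipocytes and muscle. Their membrane coat is built from caveolins, which insert into the inner leaflet, and from cavins, which assemble on the cytosolic face of the coat. Proteins of the EHD and PACSIN families bind at the neck, where they curve the membrane and hold the pit at the cell surface. In endothelial layers caveolae take part in transcytosis, membrane buffering and the control of endothelial nitric oxide synthase. The genes described here are 2 caveolins (*Cav1* and *Cav2*), 3 cavins (*Ptrf*, cavin-1; *Sdpr*, cavin-2; *Prkcdbp*, cavin-3) and 3 genes of neck proteins (*Ehd2*, *Pacsin2* and *Pacsin3*). They were chosen by gene symbol, and all 8 were found among the 24421 genes of the deposited table and passed the filter on low counts.

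RNA was sequenced from primary endothelial cell cultures of the stria vascularis, the vascularized epithelium of the cochlear lateral wall, in 6 libraries. By the paper's methods, the stria vascularis was taken and dissociated together with the spiral ligament. The *Nhe6*-knockout group (n = 3 cultures) came from mice with a targeted disruption of *Nhe6*, and the wildtype group (n = 3) from mice without it. Both groups were taken on postnatal days 10 to 12, were untreated, had pooled animals in each culture and were expanded in endothelial growth medium after cell sorting. The labels give a C57BL/6N strain background for both groups, whereas the methods name C57bl6/j. The comparison asks how gene expression differs between the genotypes in these cells.

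Gene counts summed to 25587097 to 29126232 reads in a library. Values are given as normalized counts (reads scaled to a common library size), with the cultures of a genotype in the order of replicates 1, 2 and 3, and were compared with edgeR's quasi-likelihood test. Of the libraries, wildtype replicate 2 stood apart, at 85.2 on the first principal component against -20.6 to -7.32. *Nhe6*-knockout replicates 1 and 2 differed from each other more than sampling noise, but far less than any other pair within a genotype (chi-square per degree of freedom 5.02 against 93.8 to 417). Of 12 endothelial marker genes, *Cldn5* had 0 reads in each library, *Tie1* at most 2 and *Pecam1* at most 8, and 6 averaged at least 100 normalized counts over the libraries. All 6 fibroblast markers did so. In bulk RNA of this kind, fewer cells of a type and less RNA per cell cannot be told apart.

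*Cav1* and *Cav2* lie side by side on chromosome 6 of GRCm38 in the same orientation, *Cav2* from 17281185 to 17289115 and *Cav1* from 17306335 to 17341452, with 17.2 kb between them. The other members are spread over 5 chromosomes. *Ptrf* lies on chromosome 11 from 100956733 to 100970887, *Sdpr* on chromosome 1 from 51289126 to 51302960 and *Prkcdbp* on chromosome 7 from 105480083 to 105482300. *Ehd2* lies on chromosome 7 from 15946958 to 15967567, *Pacsin2* on chromosome 15 from 83375607 to 83464606 and *Pacsin3* on chromosome 2 from 91255954 to 91264679. The annotation places exons of an uncounted antisense-oriented transcript over 374 exonic bases of *Prkcdbp* and over 42 of *Pacsin3*, and whether the counting used strand is not given in the sources used here.

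The promoters of the caveolin pair are shown because these genes had the largest differences among the 8 and nearly the same profile over the libraries. Each sequence is RefSeq's 300-base window on the plus strand of GRCm38.p6, from 250 bases before the annotated start to 50 after it, at chr6:17280935-17281234 for *Cav2* and chr6:17306085-17306384 for *Cav1*. RefSeq gives *Cav1* a second start further in, whose window at chr6:17307390-17307689 is not printed and held 1 E box and none of the other words below. Capitals mark matches on either strand to the TATA box word TATAAA, the GC box GGGCGG, the CCAAT box and the AP-1 site TGACTCA.
Cav2: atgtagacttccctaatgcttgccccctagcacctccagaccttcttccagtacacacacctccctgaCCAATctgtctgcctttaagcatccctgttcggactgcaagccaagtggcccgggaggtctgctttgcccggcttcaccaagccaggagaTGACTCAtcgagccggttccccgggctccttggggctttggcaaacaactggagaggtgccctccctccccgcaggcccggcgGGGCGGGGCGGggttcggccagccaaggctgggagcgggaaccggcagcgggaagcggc
Cav1: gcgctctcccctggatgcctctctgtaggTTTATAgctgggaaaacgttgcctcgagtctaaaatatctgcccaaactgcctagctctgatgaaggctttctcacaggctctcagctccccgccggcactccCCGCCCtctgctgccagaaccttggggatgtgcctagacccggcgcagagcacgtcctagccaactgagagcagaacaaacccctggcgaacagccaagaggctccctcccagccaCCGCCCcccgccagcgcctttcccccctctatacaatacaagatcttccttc
Both printed windows held 2 GC boxes, which in *Cav2* share 1 base, and 35.7% of all 32851 promoter windows of this length held at least 1. The *Cav2* window alone of this pair held CCAAT, found in 37.4% of all windows, and TGACTCA, found in 5.2%. The *Cav1* window held TATAAA on the reverse strand, 30 bases from its 5′ end, and 13.6% of all windows held this word. The E box CANNTG was found at 2 places in the *Cav2* window and at 1 in the *Cav1* window, and in 72.3% of all windows. The forkhead word GTAAACA was in neither, against 3.65% of all windows. The windows were 64.3% (*Cav2*) and 59.3% (*Cav1*) G and C. These matches are descriptions of the letters only.

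*Cav1* encodes caveolin-1, the caveolin without which endothelial caveolae do not form. The *Nhe6*-knockout cultures had 4387, 4299 and 4465 normalized counts of it, and the wildtype cultures 15281, 6817 and 22235. Each *Nhe6*-knockout culture was below each wildtype culture, and wildtype replicate 2 was the wildtype culture nearest to the *Nhe6*-knockout cultures. The *Nhe6*-knockout mean was 4384 ± 83.0 (SD, n = 3), 0.297 times the wildtype mean of 14778 ± 7722 (SD, n = 3). On the log2 scale the difference was -1.75 (standard error 0.41, 95% interval -2.74 to -0.77), and edgeR's adjusted p of 0.162 over all 13479 genes tested did not pass the threshold of 0.05. When wildtype replicate 2 was left out, edgeR gave -2.10 (standard error 0.18) with an adjusted p of 0.0140. DESeq2 on all 6 libraries gave an adjusted p of 0.000973.

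*Cav2* encodes caveolin-2, which forms mixed complexes with caveolin-1 and needs it to reach the cell surface. It had 1291, 1207 and 1351 normalized counts in the *Nhe6*-knockout cultures and 5211, 1345 and 6529 in the wildtype cultures. Wildtype replicate 2 lay within the *Nhe6*-knockout range, just below *Nhe6*-knockout replicate 3, so that the genotypes overlapped, while the other 2 wildtype cultures were far above. The *Nhe6*-knockout mean of 1283 ± 72.6 (SD, n = 3) and the wildtype mean of 4362 ± 2694 (SD, n = 3) gave a log2 difference of -1.77 (standard error 0.53, 95% interval -3.05 to -0.48), which edgeR's test did not call (adjusted p = 0.273). Leaving out wildtype replicate 2 gave -2.20 (standard error 0.14) and an edgeR adjusted p of 0.00684. With all libraries, DESeq2's adjusted p was 0.0178.

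The mean of wildtype replicates 1 and 3 was 4.28 times the *Nhe6*-knockout mean for *Cav1* and 4.58 times for *Cav2*. Wildtype replicate 2 was at 1.56 times that mean for *Cav1* and 1.05 times for *Cav2*. Both genes were nearly constant among the *Nhe6*-knockout cultures, with a highest over lowest count of 1.04 for *Cav1* and 1.12 for *Cav2*, against 3.26 and 4.85 among the wildtype cultures. The calls without wildtype replicate 2 also rest on counting *Nhe6*-knockout replicates 1 and 2 as separate cultures. With these summed as 1 library and wildtype replicate 2 left out, the log2 differences were -2.09 for *Cav1* (edgeR adjusted p = 0.107) and -2.18 for *Cav2* (edgeR adjusted p = 0.0848). In that fit 0 of the 8 genes passed, beside 0.00736% of all genes called lower (1 gene), and 0 passed when they were summed and all wildtype cultures kept.

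**Figure D1:**
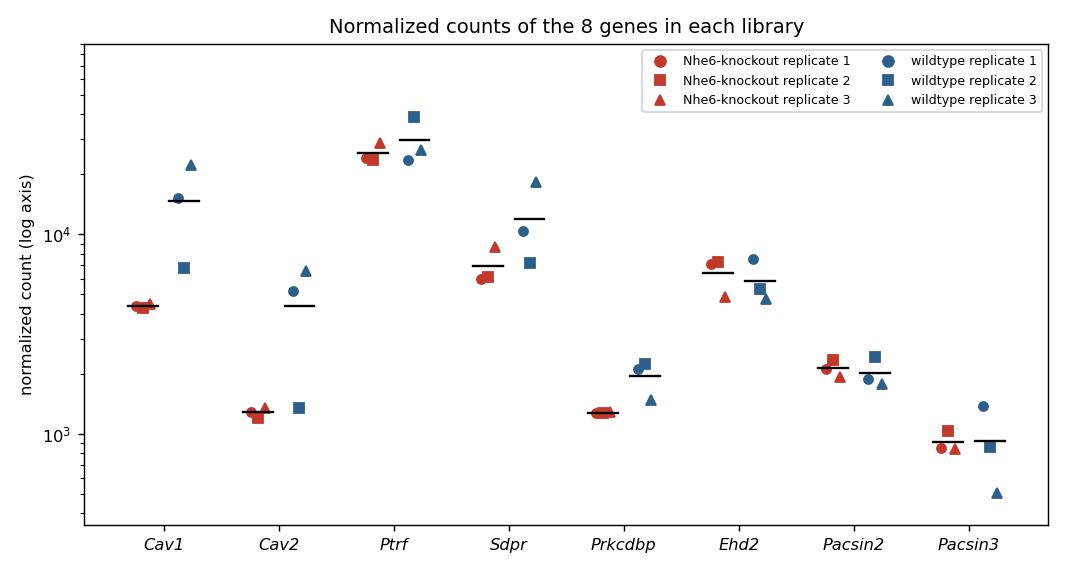
Normalized counts (vertical log axis) of the 8 genes in each of the 6 libraries, with *Nhe6*-knockout in red, wildtype in blue, a symbol for each replicate number and black bars for the mean of 3 cultures. Wildtype replicate 2 (square) sits near the *Nhe6*-knockout cultures for *Cav1*, *Cav2* and *Sdpr*, and is the highest library for *Ptrf* with 38956 normalized counts.

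*Ptrf* encodes cavin-1, which is required for caveola formation in all tissues. It had the most reads of the 8 genes in every library, with 24226, 23687 and 28589 normalized counts in *Nhe6*-knockout and 23629, 38956 and 26354 in wildtype cells. The genotypes overlapped, and the highest value was that of wildtype replicate 2. The difference was -0.22 on the log2 scale (standard error 0.24, 95% interval -0.79 to 0.36, edgeR adjusted p = 0.784), and 0.024 without wildtype replicate 2.

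*Sdpr* encodes cavin-2, which shapes the caveolar membrane and is prominent in endothelium. For this gene the *Nhe6*-knockout cultures had 5968, 6083 and 8677 normalized counts and the wildtype cultures 10418, 7199 and 18305. As for *Cav2*, wildtype replicate 2 lay within the *Nhe6*-knockout range and the other wildtype cultures lay above it. On the log2 scale the genotypes differed by -0.79 (standard error 0.36, 95% interval -1.67 to 0.08, edgeR adjusted p = 0.460). Leaving out wildtype replicate 2 gave -1.06 (edgeR adjusted p = 0.119), which did not pass either.

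*Prkcdbp* encodes cavin-3, a cavin that binds protein kinase C delta. It had 1268, 1275 and 1295 normalized counts in *Nhe6*-knockout and 2127, 2253 and 1484 in wildtype cells. Each *Nhe6*-knockout culture was below each wildtype culture, and here wildtype replicate 3, not replicate 2, was nearest to the *Nhe6*-knockout cultures. The *Nhe6*-knockout mean, 1279 ± 14.3 (SD, n = 3), and the wildtype mean, 1955 ± 412 (SD, n = 3), differed by -0.61 on the log2 scale (standard error 0.18, 95% interval -1.03 to -0.19), with an edgeR adjusted p of 0.253. The adjusted p stayed above 0.05 in each of 15 alternative settings, between 0.0827 with DESeq2 and 0.772.

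*Ehd2* encodes an ATPase that forms rings at the caveolar neck and keeps caveolae at the surface. The *Nhe6*-knockout cultures had 7084, 7252 and 4850 normalized counts and the wildtype cultures 7516, 5297 and 4754. The genotypes overlapped, and their log2 difference was 0.13 (standard error 0.24, 95% interval -0.45 to 0.71, edgeR adjusted p = 0.883). *Pacsin2* encodes an F-BAR protein that bends the neck membrane, and had 2127, 2353 and 1933 normalized counts in *Nhe6*-knockout and 1880, 2424 and 1773 in wildtype cells. It overlapped too, at a log2 difference of 0.078 (standard error 0.16, edgeR adjusted p = 0.893), and of the 8 genes it had the narrowest 95% interval, from -0.31 to 0.46. *Pacsin3*, the related F-BAR gene best known from muscle, had 855, 1031 and 842 normalized counts in *Nhe6*-knockout and 1386, 860 and 505 in wildtype cells. The wildtype cultures thus lay on both sides of the *Nhe6*-knockout cultures, and the log2 difference of -0.012 (standard error 0.35, edgeR adjusted p = 0.990) had a wide 95% interval, from -0.86 to 0.84.

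**Figure D2:**
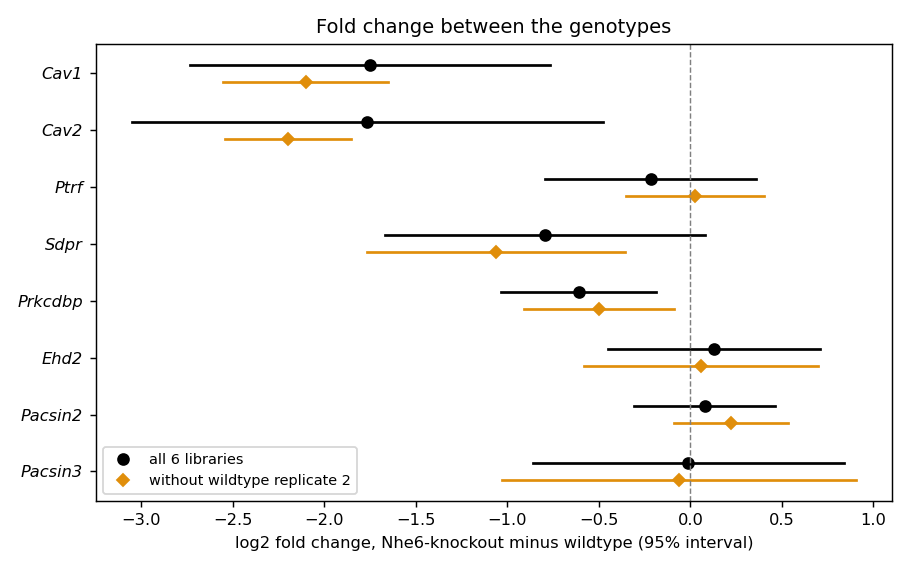
Log2 fold change of each gene, *Nhe6*-knockout minus wildtype (horizontal axis), with its 95% interval from edgeR, for all 6 libraries (black) and without wildtype replicate 2 (orange). *Cav1* and *Cav2* lie furthest below 0 in both, at -1.75 and -1.77 with all libraries, while the intervals of *Ptrf*, *Ehd2*, *Pacsin2* and *Pacsin3* include 0 in both.

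In edgeR's test with all 6 libraries 0 of the 8 genes had an adjusted p under 0.05, against 0.0668% of all genes tested in either direction and 0.0371% called lower. An unadjusted p under 0.05 was found for 3 of them (*Cav1*, *Cav2* and *Prkcdbp*), each lower in *Nhe6*-knockout cells, beside 5.71% of all genes tested in that direction. DESeq2's test called 2 (*Cav1* and *Cav2*), beside 1.83% of all genes called lower, and limma-voom called 0, beside 0.0742% in either direction. Without wildtype replicate 2, edgeR's test called the same 2 genes, beside 1.26% of all genes called lower. The genotypes did not overlap for 2 of the 8 (*Cav1* and *Prkcdbp*), both lower in *Nhe6*-knockout cells, beside 9.57% of all genes in that direction. Without wildtype replicate 2 this number was 4 (*Cav1*, *Cav2*, *Sdpr* and *Prkcdbp*), beside 19.1% of all genes lower without overlap, and *Pacsin2* was higher in *Nhe6*-knockout cells without overlap, beside 19.3% of all genes in that direction. The median log2 fold change was -0.41 over the 8 genes and -0.016 over all genes tested.

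Levels of different genes were compared as normalized counts per kilobase of exon. In *Nhe6*-knockout cells *Ptrf* was highest, at 7109 ± 749 (SD, n = 3) per kilobase, followed by *Sdpr* at 2262 ± 501, *Cav1* at 1273 ± 24.1 and *Ehd2* at 1249 ± 262. Below these came *Prkcdbp* at 770 ± 8.62, *Pacsin2* at 436 ± 42.8, *Cav2* at 385 ± 21.8 and *Pacsin3* at 210 ± 24.4. The values of *Cav1* and *Ehd2* overlapped, as did those of *Pacsin2* and *Cav2*, and the other neighbours in this order did not overlap.

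In wildtype cells *Ptrf* was again highest, at 8265 ± 2279 per kilobase, and *Cav1* came next at 4291 ± 2242, with *Sdpr* at 3919 ± 1870. *Cav2* stood below these at 1308 ± 808, followed by *Prkcdbp* at 1176 ± 248, *Ehd2* at 1144 ± 286, *Pacsin2* at 413 ± 71.1 and *Pacsin3* at 212 ± 102. The values of *Cav1* and *Sdpr* overlapped, and so did those of *Cav2*, *Prkcdbp* and *Ehd2*, while the other neighbours did not. With the length of the longest transcript in place of all exons the order was the same in both genotypes. *Pacsin3*, whose value moved most with this choice, was then at 456 per kilobase in *Nhe6*-knockout and 460 in wildtype cells.

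**Figure D3:**
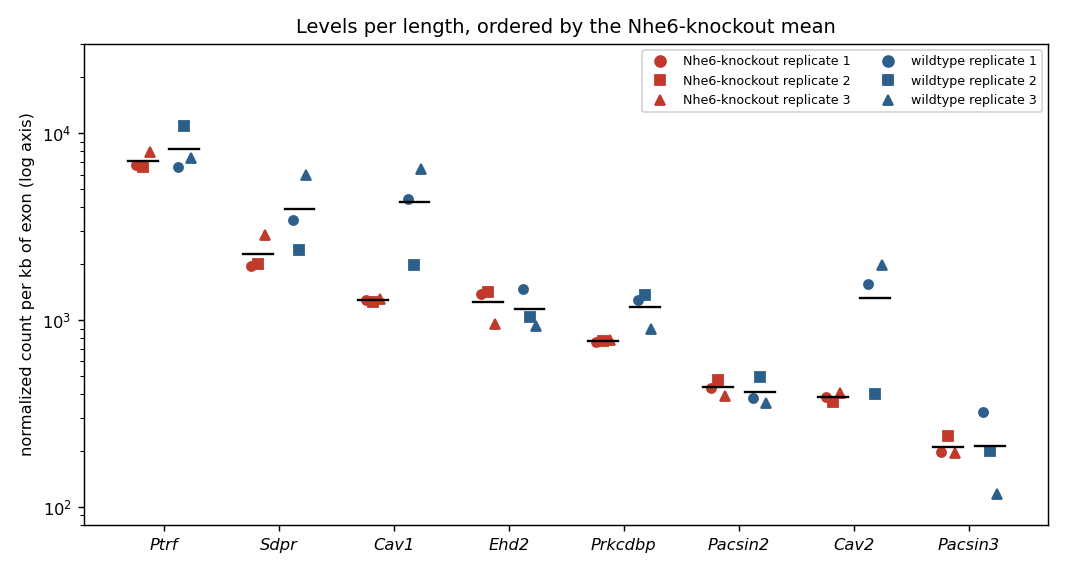
Normalized counts per kilobase of exon (vertical log axis) for the 8 genes in each library, ordered by the *Nhe6*-knockout mean, with black bars for the mean of 3 cultures. *Ptrf* is highest in both genotypes, and *Cav1* and *Cav2* take a higher place in wildtype cultures 1 and 3 than in the *Nhe6*-knockout cultures.

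A ratio of 2 genes within a library does not depend on the scaling between libraries. The ratio of *Cav1* to *Ptrf* per kilobase was 0.189, 0.189 and 0.163 in *Nhe6*-knockout and 0.674, 0.182 and 0.879 in the wildtype cultures. On this ratio wildtype replicate 2 lay inside the *Nhe6*-knockout range, since its *Ptrf* was high and its *Cav1* low among the wildtype cultures. The ratio of *Cav2* to *Cav1* varied less, at 0.304, 0.290 and 0.312 in *Nhe6*-knockout and 0.352, 0.204 and 0.303 in wildtype cells. The ratio of *Sdpr* to *Ptrf* was 0.289, 0.302 and 0.356 in *Nhe6*-knockout and 0.518, 0.217 and 0.816 in wildtype cells. The 8 genes together took 0.174% to 0.194% of the gene reads of a *Nhe6*-knockout library and 0.231% to 0.290% of those of a wildtype library.

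**Figure D4:**
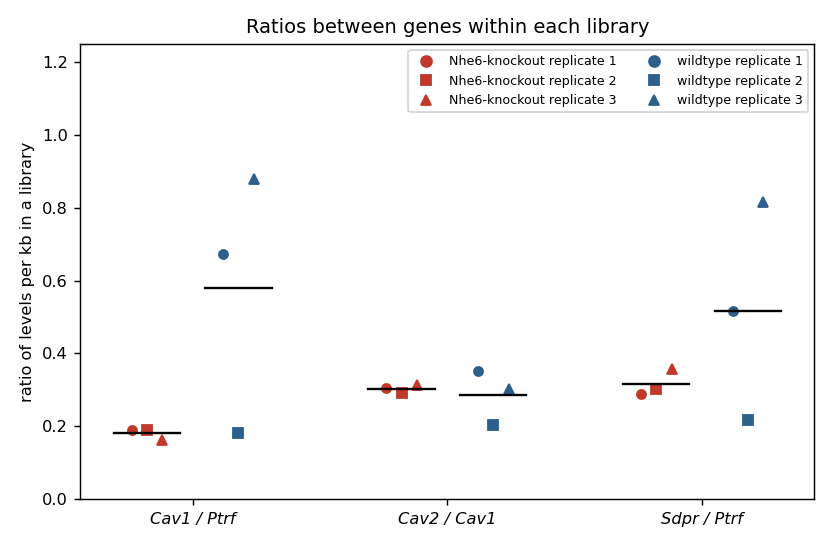
Ratio of levels per kilobase between 2 genes within each library (vertical axis), for *Cav1* over *Ptrf*, *Cav2* over *Cav1* and *Sdpr* over *Ptrf*, with black bars for the mean of 3 cultures. For *Cav1* over *Ptrf*, wildtype replicates 1 and 3 are at 0.674 and 0.879, and wildtype replicate 2 is at 0.182 among the *Nhe6*-knockout cultures.

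The paralogs outside these 8 genes showed no calls. Of 6 listed, 4 were tested. Of these 0 passed in edgeR's test, beside 0.0668% of all genes in either direction. In DESeq2's test 0 passed, beside 627 of 13381 genes, and in limma-voom's 0, beside 0.0742%. An unadjusted p under 0.05 in edgeR's test was found for 0, beside 11.8% of all genes. Their median log2 fold change was 0.029. Without wildtype replicate 2 the median was 0.215, beside 0.00029 over all genes tested. *Ehd1* and *Ehd4* were then higher in *Nhe6*-knockout cells without overlap (edgeR adjusted p = 0.115 and 0.279), beside 19.3% of all genes in that direction. *Cav3*, the muscle caveolin, had at most 1 read in any library, and *Pacsin1*, the neuronal PACSIN, at most 11. *Murc*, which encodes the muscle cavin, cavin-4, had 23.5 to 65.2 normalized counts. The endosomal EHD genes were well expressed, *Ehd1* with 1426 to 3844 normalized counts, *Ehd3* with 1638 to 3629 and *Ehd4* with 252 to 766, and each overlapped between the genotypes with all 6 libraries.

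Of 15 listed genes of proteins that work in or with caveolae or related membrane domains, 14 were tested. Of these 0 passed in edgeR's test, 0 in DESeq2's and 0 in limma-voom's. Over all genes and in either direction, these shares were 0.0668%, 627 of 13381 and 0.0742%. In edgeR's test 1 had an unadjusted p under 0.05, beside 11.8% of all genes in either direction. The median log2 fold change was 0.00035, or 0.20 without wildtype replicate 2, beside 0.00029 over all genes in that setting. *Nos3*, which encodes the endothelial nitric oxide synthase that caveolin-1 holds inactive, had at most 10 reads in any library and was not tested. *Plvap*, a protein of the diaphragms of endothelial caveolae, had 1.03 to 17.1 normalized counts, and *Mfsd2a*, a lipid transporter that restrains caveolar transcytosis in brain endothelium, had 7.22 to 46.0. The genotypes did not overlap for 2 of the 14, both higher in *Nhe6*-knockout cells, beside 10.3% of all genes in that direction. These were *Abl1*, a kinase that phosphorylates caveolin-1, at a log2 difference of 0.30 (standard error 0.12, edgeR adjusted p = 0.420), and *Cd36*, a fatty acid transporter found in caveolae. *Cd36* had 107, 107 and 86.1 normalized counts in *Nhe6*-knockout and 50.8, 0 and 56.7 in wildtype cells (edgeR adjusted p = 0.672). Without wildtype replicate 2, *Abl1*, *Cd36*, *Fyn*, *Flna* and *Scarb1* were higher in *Nhe6*-knockout cells without overlap, beside 19.3% of all genes in that direction. The other tested genes of this list overlapped.

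Markers of other cell types and of proliferation differed among the libraries. The mural markers summed to 734 to 780 CPM (counts scaled to library size) in *Nhe6*-knockout cultures and to 565, 1228 and 642 in the wildtype cultures. Within that list *Acta2*, the smooth muscle actin gene, was highest in wildtype replicate 2. It had 280, 373 and 1204 normalized counts in *Nhe6*-knockout and 29.3, 16267 and 70.6 in wildtype cells. *Pdgfrb*, the mural receptor gene, was lowest in wildtype replicate 2, with 7790 against 14678 to 18983 elsewhere. It gave most of the mural sum in every library except that one. Of the 8 mural markers, 4 were higher in *Nhe6*-knockout cells without overlap, beside 10.3% of all genes in that direction. The median log2 fold change of the 8 was 0.78. In edgeR's, DESeq2's and limma-voom's tests 0 of them passed, and 0 passed in edgeR's without wildtype replicate 2. DESeq2 gave *Acta2* no adjusted p, so its count does not cover that gene. The fibroblast gene *Col1a1* had 965, 1227 and 513 in *Nhe6*-knockout and 207, 27174 and 213 in wildtype cells. With all 6 libraries the log2 differences were -3.14 for *Acta2* (edgeR adjusted p = 0.636) and -3.35 for *Col1a1* (edgeR adjusted p = 0.546). Without wildtype replicate 2 the sign was reversed, at 3.63 for *Acta2* (edgeR adjusted p = 0.0821) and 2.10 for *Col1a1* (edgeR adjusted p = 0.0512). Both were then higher in *Nhe6*-knockout cells without overlap, beside 19.3% of all genes in that direction. *Emcn*, an endothelial marker, had 18385, 17400 and 9896 in *Nhe6*-knockout and 13407, 409 and 14723 in wildtype cells (edgeR adjusted p = 0.853). The endothelial list summed to 605 to 934 CPM in *Nhe6*-knockout and to 846, 566 and 851 in wildtype cells. *Emcn* gave most of this sum in every library except wildtype replicate 2, so the sum largely followed that gene. Of the list's 7 tested genes 1 passed in edgeR's test, called lower, beside 0.0371% of all genes. DESeq2's test called 2 lower, beside 1.83%, and limma-voom's 1, beside 0.0742% in either direction. Without wildtype replicate 2, edgeR's test called 1 lower and 1 higher of 9, beside 395 of 13728 genes in either direction. The list's median log2 fold change was -0.42 with all libraries and 0.11 without that culture. The gene called by edgeR with all libraries was *Cdh5* (VE-cadherin). It had 220, 232 and 179 normalized counts in the *Nhe6*-knockout cultures and 2508, 5198 and 3468 in the wildtype cultures. *Cdh5* was highest in wildtype replicate 2, where the caveolins were lowest among the wildtype cultures.

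For all 6 proliferation markers the genotypes did not overlap, with *Nhe6*-knockout higher, beside 10.3% of all genes in that direction, and their sum was 174 to 331 CPM in *Nhe6*-knockout and 42.4, 48.0 and 25.1 in wildtype cells. Of these markers 0 passed in edgeR's test with all libraries, 0 in limma-voom's, 6 in DESeq2's and 5 in edgeR's without wildtype replicate 2. Over all genes and in either direction, DESeq2's test called 627 of 13381, and edgeR's without wildtype replicate 2 called 395 of 13728. Fibroblast markers summed to 7578 to 8470 in *Nhe6*-knockout and to 7343, 9798 and 6012 in wildtype cells. Of these 6 markers, 2 were higher in *Nhe6*-knockout cells without overlap, beside 10.3% of all genes in that direction. The adipocyte list, whose cells are rich in caveolae, summed to 12.8 to 18.3 and to 5.11, 1.87 and 6.09, with 0 reads of *Plin1* in each library. The skeletal muscle list summed to at most 1.08 in *Nhe6*-knockout and to 5.78, 5.99 and 3.69 in wildtype cells, with 0 reads of *Myod1* and *Myog*. The adipocyte and skeletal muscle lists had 2 tested genes each. Without overlap, 1 adipocyte gene was higher and 1 skeletal muscle gene lower in *Nhe6*-knockout cells, beside 10.3% and 9.57% of all genes. The macrophage list summed to 17.3 to 30.3 and to 43.2, 4.01 and 18.3, and the melanocyte list to 14.2 to 24.4 and to 29.0, 10.4 and 39.4. Of the fibroblast, adipocyte and skeletal muscle lists 0 genes passed in edgeR's test with all libraries or in limma-voom's. DESeq2's test called 1 fibroblast and 1 adipocyte gene higher and 1 skeletal muscle gene lower. It gave *Col1a1* no adjusted p. Without wildtype replicate 2, edgeR's test called 1 adipocyte gene higher and 1 skeletal muscle gene lower. The part of these cell types and of proliferation in the caveolin and cavin values was not tested.

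**Figure D5:**
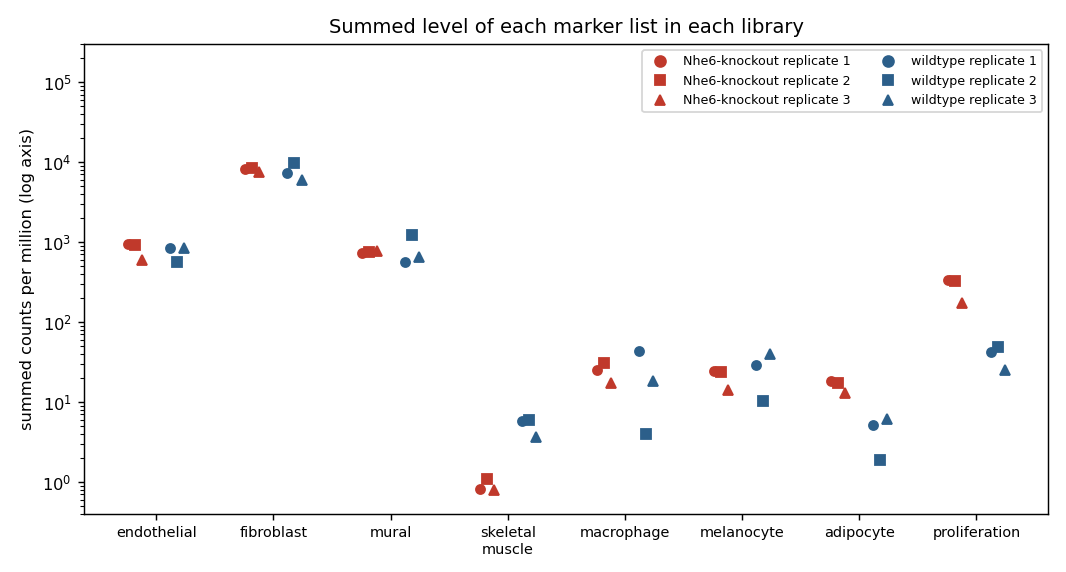
Summed CPM of each marker list (vertical log axis) in each of the 6 libraries. The proliferation list is at 174 to 331 in the *Nhe6*-knockout cultures and at 25.1 to 48.0 in the wildtype cultures. By these sums, wildtype replicate 2 is the highest library for mural and fibroblast markers and the lowest for endothelial, macrophage, melanocyte and adipocyte markers. Outside that library, *Emcn* gives most of the endothelial sum and *Pdgfrb* most of the mural sum.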

How the data were processed

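The authors deposited raw counts of reads per gene symbol, from poly(A)-enriched stranded libraries sequenced for 75 cycles. The submitters' processing notes list bcl2fastq 2.20.0.422, STAR 2.7.7a, HTSeq 0.13.5, DESeq2 1.26.0 and mm10. Their 5 summary lines (22.2% of all reads) were left out. Columns were matched to cultures by genotype and replicate number. Per-library depth was 25587097 to 29126232 reads on genes.

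Genes were filtered with filterByExpr (minimum count 10), normalized by TMM and tested two-sided with edgeR's quasi-likelihood method (edgeR 4.0.16, R 4.3.3), with genotype alone in the design and Benjamini-Hochberg adjustment over 13479 genes. A standard error is the log2 fold change divided by the square root of F. Normalized counts are scaled to the mean library size. Alternatives were other normalizations and filters, DESeq2 1.42.0, limma-voom (limma 3.58.1), a replicate block and leaving out each culture. The scripts were tested on simulated data. P-values weigh the difference between the genotypes against the spread between these cultures.

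Positions and exon lengths came from GENCODE M21 and promoters from RefSeq, both on GRCm38; *Ptrf*, *Sdpr* and *Prkcdbp* were matched through their current symbols, and 7 of the 8 genes had a promoter entry. Named were the 8 genes, all listed paralogs, listed partners not detected, past the threshold or without overlap, the 3 genes with profiles nearest to *Cav1*, and defining markers at or near 0. The genes and lists were chosen with earlier results of these data known, and the marker *Emr1* was read under its current symbol, *Adgre1*. *Plvap*, *Mfsd2a*, *Acta2*, *Col1a1*, *Emcn*, *Cdh5*, *Pdgfrb* and the neighbours of the caveolin pair were named after their values were seen. The check of the targeted gene is not reported here.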

Additional observations from a re-analysis of the deposited data

How the results depend on the processing

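Under 15 alternatives the 8 genes gave 120 log2 fold changes, of which 105 kept their direction and their side of the threshold, 4 passed it (*Cav1* and *Cav2* with DESeq2 and without wildtype replicate 2) and 11 changed sign, all of these among *Ptrf*, *Ehd2*, *Pacsin2* and *Pacsin3* and none with an adjusted p under 0.05. The number of the 8 genes past the threshold was 2 with DESeq2 and 0 to 2 with each culture left out, against 0 with all 6 libraries in edgeR. Over all genes it was 9 in edgeR, 21 with no filter beyond 1 count, 21 with at least 10 counts in every library, 627 with DESeq2, and 0 to 395 with each culture left out, the most without wildtype replicate 2. Summing *Nhe6*-knockout replicates 1 and 2, a setting chosen after seeing the data, gave 1 gene, and leaving out wildtype replicate 2 as well also gave 1. *Cav1* ranged from -2.10 to -1.34 on the log2 scale and its adjusted p from 0.000973 to 0.606, and *Cav2* from -2.20 to -1.36, with an adjusted p from 0.00684 to 0.786.

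Over the fits without 1 culture, log2 fold changes were -0.36 to 0.024 for *Ptrf*, -0.010 to 0.34 for *Ehd2*, -0.016 to 0.22 for *Pacsin2* and -0.31 to 0.41 for *Pacsin3*. *Pacsin3* was at 0.015 with upper-quartile normalization and at 0.093 with limma-voom. With both *Nhe6*-knockout replicates summed and wildtype replicate 2 left out, *Ptrf* was at 0.069 and *Ehd2* at -0.031. The genotypes did not overlap for 2 to 5 of the 8 genes with each culture left out, beside 22.2% to 38.2% of all genes, both highest without wildtype replicate 2, and for 3 with DESeq2's size factors, beside 19.9%, against 2 and 19.9% with all libraries and TMM. Of the paralogs and partners 0 passed in any setting. For each of these shifts, the cause was not tested.

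Replicate numbers are shared by the genotypes, but same-numbered cultures deviated together with correlations of 0.28, -0.14 and 0.15 across genes, and 2 of 6 libraries correlated best with their own number. The numbers were not taken as pairs. With the replicate block 2 genes passed in place of 9 and 0 of the 8, and *Pacsin3* was at 0.10.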

Other observations

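The gene with the profile most like that of *Cav1*, by the root mean square difference of centred log2 CPM over the 6 libraries, was *Afap1l1*, which encodes an actin filament associated protein, with a difference of 0.13 among 11126 other genes averaging at least 100 normalized counts. It had 80.7, 85.5 and 81.4 normalized counts in *Nhe6*-knockout and 240, 106 and 381 in the wildtype cultures. Wildtype replicate 2 was the wildtype culture nearest to the *Nhe6*-knockout cultures, which follows from choosing the gene by its likeness to *Cav1*. The pseudogene *Tmem181b-ps* was next, with 0.23, although a pseudogene can share reads with its parent gene, which was not tested, and *Cav2* followed with 0.24. Of the other members *Sdpr* ranked 50, *Prkcdbp* 1502, *Ptrf* 5864, *Ehd2* 6994, *Pacsin2* 7462 and *Pacsin3* 8766. All of these values share the same 6 libraries.

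The nearest tested genes on chromosome 6 were *Tes* and *Mdfic* before the caveolin pair and *Met* and *Capza2* beyond it. Of these 0 passed in edgeR's test, beside 0.0668% of all genes in either direction. An unadjusted p under 0.05 was found for 0, beside 11.8% of all genes. *Tes*, 175.4 kb before *Cav2*, had 896, 918 and 1100.4 normalized counts in *Nhe6*-knockout and 579, 1758 and 665 in the wildtype cultures, so that wildtype replicate 2 was the highest library, and its log2 fold change was -0.04 (adjusted p = 0.977 in edgeR's test). *Met*, 122.3 kb beyond *Cav1*, had 246, 255 and 314 in *Nhe6*-knockout and 353, 295 and 504 in wildtype cells, at a log2 difference of -0.50 (edgeR adjusted p = 0.495). *Mdfic*, 1479 kb before *Cav2*, was at -0.59 (edgeR adjusted p = 0.653) and *Capza2*, 294.8 kb beyond *Cav1*, at -0.088 (edgeR adjusted p = 0.865). Without wildtype replicate 2 the log2 fold changes were 0.64 for *Tes* (edgeR adjusted p = 0.0969), higher in *Nhe6*-knockout cells without overlap, 0.012 for *Mdfic*, -0.66 for *Met* (edgeR adjusted p = 0.187), lower without overlap, and -0.065 for *Capza2*, beside 19.3% of all genes higher and 19.1% lower without overlap. The difference of the caveolin pair from these neighbours was not tested.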
